A study of Mus musculus with 8 samples.

Results

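A set of 140 very wide promoter regions was called as accessible in every bulk library of formalin-fixed paraffin-embedded (FFPE) mouse spleen. All peaks of the 4 bulk ATAC-seq lists were merged on an overlap of 1 bp over chromosomes 1 to 19, which gave 58916 regions. A region was kept when each of the 4 lists held a peak in it, its merged width was at least 2000 bp, and it came into contact with a promoter window, which began 1000 bp before and ended 200 bp past the transcription start site (TSS) of a protein-coding gene in the mm10 GENCODE annotation. The 140 regions were thus chosen by the peaks and widths measured in these same libraries, and they made up 0.238% of all merged regions, 0.608% of the 23022 regions called in all 4 libraries and 1.46% of the 9595 promoter regions among those. The other 9455 promoter regions called in all 4 libraries serve as the comparison. The spleen was from 8-week-old C57BL/6J mice, and nuclei of 1 tagmented sample were carried on with reverse crosslinking (+RV, 2 libraries) or without it (−RV, 2 libraries), so that all 4 libraries share fixation, strain and tissue. Both libraries of a condition were technical replicates, and p-values measure only the spread between them. Single-cell ATAC-seq of the same tissue type was used as pooled fragments, 1 set per condition, with 13703580 nuclear fragments of 18620 barcodes in the +RV set and 1592372 nuclear fragments of 2406 barcodes in the −RV set (2 barcodes occurred in both). A peak is a stretch where Tn5 transposase inserted more often than in the local background, and in bulk material a smaller share of open nuclei cannot be told apart from less access per nucleus.

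Active promoters keep a stretch of DNA around the TSS free of nucleosomes, and the transposase enters there. In mammals, many promoters of widely used and of regulatory genes lie in CpG islands, stretches rich in the dinucleotide CG that is depleted elsewhere in the genome. Formaldehyde links proteins to DNA, and reverse crosslinking, here with salt, detergent and proteinase K after tagmentation, undoes such links.

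The promoter sequences of 5 of the regions are printed as examples of how CG dinucleotides lie around the start. They were taken from RefSeq (GRCm38.p6, 250 bases before to 50 bases after the annotated start, 5′ to 3′ on the gene's strand), and capitals mark each CG dinucleotide. Sfmbt1 (chr14:30714917-30715216), a gene for a Polycomb-related protein, is shown because its region had the highest CpG observed over expected of all 140. Hmgb2 (chr8:57511593-57511892), which encodes a DNA-bending chromatin protein, is shown for 4 CCAAT boxes. Jun (chr4:95052173-95052472) encodes the AP-1 transcription factor subunit, and Vim (chr2:13574061-13574360) the intermediate filament protein vimentin, with a TATA box. Fes (chr7:80387897-80388196), a tyrosine kinase gene used in myeloid cells, is shown because its region had the lowest ratio.
Sfmbt1: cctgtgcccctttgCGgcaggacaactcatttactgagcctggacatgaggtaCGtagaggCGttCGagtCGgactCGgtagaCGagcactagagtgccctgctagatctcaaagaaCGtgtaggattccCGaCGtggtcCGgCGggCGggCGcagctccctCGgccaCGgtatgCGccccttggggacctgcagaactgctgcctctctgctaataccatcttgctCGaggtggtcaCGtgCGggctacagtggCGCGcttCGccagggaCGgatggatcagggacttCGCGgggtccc
Hmgb2: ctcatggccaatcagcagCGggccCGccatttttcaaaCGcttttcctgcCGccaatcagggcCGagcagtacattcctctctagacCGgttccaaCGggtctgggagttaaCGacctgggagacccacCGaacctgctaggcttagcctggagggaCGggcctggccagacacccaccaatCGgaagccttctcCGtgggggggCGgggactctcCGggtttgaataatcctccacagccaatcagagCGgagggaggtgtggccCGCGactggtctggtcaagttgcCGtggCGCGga
Jun: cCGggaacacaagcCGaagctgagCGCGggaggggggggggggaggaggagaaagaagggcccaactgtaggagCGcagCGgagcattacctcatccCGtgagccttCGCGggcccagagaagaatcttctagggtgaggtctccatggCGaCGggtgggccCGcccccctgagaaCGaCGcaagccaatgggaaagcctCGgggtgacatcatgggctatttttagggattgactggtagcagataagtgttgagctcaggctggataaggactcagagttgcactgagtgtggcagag
Vim: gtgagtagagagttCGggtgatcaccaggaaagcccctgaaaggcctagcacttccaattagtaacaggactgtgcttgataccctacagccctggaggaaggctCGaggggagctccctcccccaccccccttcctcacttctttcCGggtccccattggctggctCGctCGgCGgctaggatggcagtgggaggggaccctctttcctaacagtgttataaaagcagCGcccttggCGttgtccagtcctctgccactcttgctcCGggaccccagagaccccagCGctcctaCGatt
Fes: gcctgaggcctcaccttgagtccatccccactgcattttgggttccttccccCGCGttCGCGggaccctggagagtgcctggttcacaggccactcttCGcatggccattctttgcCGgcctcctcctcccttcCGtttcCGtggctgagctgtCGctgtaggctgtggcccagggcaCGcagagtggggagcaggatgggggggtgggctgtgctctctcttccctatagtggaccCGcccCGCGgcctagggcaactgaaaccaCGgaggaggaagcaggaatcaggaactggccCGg

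Counts of CG in these 300 bases were 26 for Sfmbt1, 20 for Hmgb2, 15 for Jun, 11 for Vim and 15 for Fes. Of the 157 protein-coding genes whose promoter window a very wide region touched, 109 had a RefSeq promoter that overlapped the region. These 109 promoters held a median of 29 CG dinucleotides, against 22 in 7570 promoters of the other promoter regions and 7 in all 25748 promoters on chromosomes 1 to 19 (1 promoter per gene). All 5 printed promoters lay below the median of the 109, which ran between 5 and 63.

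Merged widths ran between 2002 and 3216 bp with a median of 2138 bp, whereas the other promoter regions had a median of 1121 bp. The widest region lay at Ppp2r3d (chr9:124422814-124426029), a gene for a regulatory subunit of protein phosphatase 2A. It was followed by Jade2 (2994 bp), which encodes a PHD finger protein, and by Nr3c1 (2912 bp), the glucocorticoid receptor gene. Next were B430305J03Rik (2781 bp), the phosphatase gene Cdc14a (2582 bp), Vim (2532 bp) and Galnt7 (2529 bp), whose product takes part in O-glycosylation of proteins. A shared region at Cbx3 and Hnrnpa2b1 (2489 bp) spanned the divergent starts of a heterochromatin protein gene and an RNA-binding protein gene, and Zfp827 (2474 bp) and Fam84b (2467 bp) completed the 10 widest. Lsm14a (2002 bp), D1Ertd622e (2002 bp) and Sgpl1 (2004 bp) lay just inside the width limit, and Fhit (1999 bp), Ppp2r5a (1997 bp) and Ssbp2 (1996 bp) just outside it. All 149 merged regions of at least 2000 bp were called in all 4 libraries, and 9 of them touched no promoter window.

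The tissue label was checked by promoter peaks of marker genes. A peak at the promoter was present for 7 and 7 of 7 B cell markers in the +RV libraries and for 6 and 7 in the −RV libraries. For T cells it was 5 and 6 of 6, against 5 and 5, for erythroid cells 4 and 4 of 5, against 2 and 2, and for macrophages 3 and 2 of 6, against 1 and 2. Endothelial markers had 3 and 3 of 4 in the +RV libraries and 1 and 1 in the −RV libraries, stromal markers 0 and 2 of 3, against 0 and 1, and pancreatic acinar markers 1 and 0 of 4, against 0 and 0. The +RV lists held 47755 and 47864 peaks and the −RV lists 32288 and 32736, and the read depth behind them is unknown.

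Which genes lay in very wide regions was read against lists of genes. The B cell list (14 genes with a promoter region in all 4 libraries) had no gene in such a region. Neither did the lists for T cells (10), macrophages and monocytes (8) and erythroid cells (8). The same held for 27 lymphoid transcription and signalling regulators and 18 genes of NF-kB and its feedback. It also held for 14 cell cycle genes and 11 replication-dependent histone genes. Of the 22 immediate early genes, all with a promoter region, Jun and Egr2 lay in such a region. Of 28 genes for chromatin regulators it was Arid1b, a subunit of the SWI/SNF remodelling complex, and of 21 ribosomal protein genes Rpl7. Hnrnpa2b1 and Hnrnpul1 were in such a region among 26 genes for splicing and RNA binding, and Ywhaz, a 14-3-3 protein gene, and Hsp90ab1, a cytosolic chaperone gene, among 17 housekeeping genes. In all, 8 of 228 list genes with a promoter region lay in a very wide one, beside 157 of 10195 (1.54%) of all protein-coding genes with a promoter region. The lists were chosen with earlier results of these data known, and no list was tested against another. At a share of 1.54%, lists this short hold few or no such genes, so an empty list is not read as a result.

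In a very wide region, peaks of the +RV libraries covered more bases than peaks of the −RV libraries. The median was 1982.5 and 2003 bp in the +RV libraries, against 1226 and 1274.5 bp in the −RV libraries (ratio 1.59), and the 4 values split by condition without overlap. Covered bases, numbers of peaks and their positions come from the same peaks that chose the regions, so these values are a description without a test. In 132 of 140 regions (94.3%) both +RV libraries covered more bases than either −RV library, beside 66.1% of all 23022 regions, and nothing is read from the excess. Because a merged width is set mostly by the widest peaks, the choice of the regions bears on this ratio. When only the 2 −RV lists chose the regions, 5 regions passed (Hsp90ab1, Btf3l4 with Txndc12, Crlf2, Ibtk and Ppp2r3d, named after their values were seen) and the ratio was 1.01. When only the 2 +RV lists chose them, 112 passed and the ratio was 1.65.

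**Figure D1:**
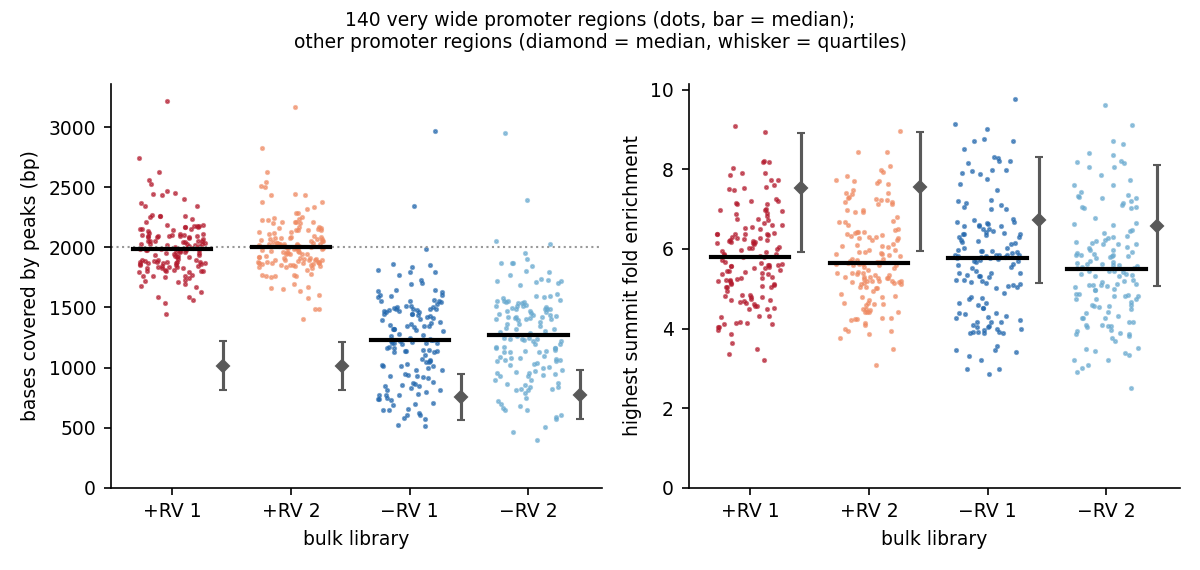
Bases covered by peaks (bp, left) and highest summit fold enrichment (right) of the 140 very wide promoter regions in each bulk library. Each dot is a region and each bar the median; diamonds and whiskers give the median and quartiles of the 9455 other promoter regions, and the dotted line is the 2000 bp limit. Covered bases had medians of 1982.5 and 2003 bp in +RV and 1226 and 1274.5 bp in −RV, whereas the median fold stayed between 5.49 and 5.79 in all 4.

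Across all 23022 regions called in all 4 libraries, a limma fit of log2 covered bases called 822 higher (3.57%) and 6 lower (0.0261%) in +RV at an adjusted p under 0.05. Among the 140 very wide regions 31 were called higher (22.1%) and 0 lower. By limma, 110 of the 140 had an unadjusted p under 0.05, beside 7736 of all 23022 regions. Since the choice favours regions with wide +RV peaks, this excess over all regions is no independent result. The median difference was 0.65 on the log2 scale over the 140, beside 0.38 over the other promoter regions and 0.35 over all regions. The adjusted p-values of the 31 lay between 0.0425 and 0.05, just inside the threshold. With each library centred on its median, the median difference was 0.22 over the 140 and -0.087 over all regions, and 0 regions were called. In that fit, 44 of the 140 and 3637 of all 23022 regions had an unadjusted p under 0.05 by limma. With any 1 of the 4 libraries left out, the median difference was between 0.61 and 0.70 over the 140 and between 0.32 and 0.36 over all regions. Such a fit leaves 1 library in a condition, so the steady median does not show that the 31 calls hold.

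Fam84b had the largest difference of the 140. Its peaks covered 2454 and 1920 bp in the +RV libraries and 518 and 503 bp in the −RV libraries (log2 difference 2.09 ± 0.18 SE). At Sfmbt1 the peaks covered 1924 and 2075 bp in +RV, against 605 and 396 bp in −RV (2.03 ± 0.24). At Arid1b they covered 2150 and 2224 bp in +RV, against 650 and 462 bp in −RV (2.00 ± 0.21). In each of these regions both +RV values lay far above both −RV values. Pde3b, a cyclic nucleotide phosphodiesterase gene, had 1729 and 2253 bp in +RV, against 573 and 571 bp in −RV. Hmgb2 had 1865 and 2061 bp in +RV, against 796 and 697 bp in −RV. Phf2, a histone demethylase gene, had 1897 and 1852 bp in +RV, against 730 and 586 bp in −RV. All 6 regions were among the 31. Genes named among the 31 for their covered bases beyond the fixed rule (chosen after their values were seen) were Setd7, a lysine methyltransferase gene (log2 difference 1.42), Smc4 with Ift80, of which Smc4 encodes a condensin subunit (1.45), Stag1, a cohesin subunit gene (0.94), and Top2b, a DNA topoisomerase gene (1.06).

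At the other end, the peaks at a few regions covered nearly the same bases in every library. Ibtk, named after its values were seen, had the only negative difference of the 140, with 1881 and 1965 bp in +RV, against 1985 and 1902 bp in −RV (-0.015 ± 0.14 SE). The 2 conditions overlapped there. Ppp2r3d had 3216 and 3163 bp in +RV, against 2965 and 2952 bp in −RV, always as 1 peak. Crlf2, a subunit gene of the receptor for the cytokine TSLP (chr5:109556790-109559249), had 2441 and 2440 bp in +RV, against 2343 and 2393 bp in −RV, also as 1 peak in each. Ppp2r3d and Crlf2 were the only 2 of the 140 regions with at least 2000 covered bases in all 4 libraries (1.43%), whereas 43 had that in both +RV libraries. Values of the other wide members stood between. Nr3c1 had 2743 and 2827 bp in +RV, against 1730 and 2054 bp in −RV (log2 difference 0.56). Vim had 2346 and 2505 bp in +RV, against 1507 and 1581 bp in −RV (0.65). Stat6, the transcription factor gene of interleukin-4 signalling, had 2467 and 2381 bp in +RV, against 1360 and 1955 bp in −RV (0.57). None of these 3 was among the 31, and both +RV values lay above both −RV values in each.

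The region was also cut into more peaks in −RV. The mean number of peaks per region was 1.33 in each +RV library and 1.86 in each −RV library. A single peak was called in 98 and 98 of the 140 regions in the +RV libraries, against 45 and 43 in the −RV libraries. Only 13 regions (9.29%) held 1 peak in all 4 libraries, against 82.0% of the other promoter regions. The 46 and 46 gaps between peaks in the +RV libraries had median lengths of 131.5 and 144 bp, against 323 and 330 bp for the 121 and 121 gaps in the −RV libraries. Cdc14a was 1 peak in both +RV libraries but 4 and 3 peaks in the −RV libraries, and Nr3c1 was 1 and 2 peaks in +RV, against 4 and 3 in −RV.

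The bases that −RV peaks left out lay mostly downstream of the TSS. Positions were counted from the touched protein-coding TSS nearest the middle of the region, with downstream in the direction of transcription. At 500 bp downstream, 90.0% and 90.0% of the very wide regions had a peak in the +RV libraries, against 27.9% and 29.3% in the −RV libraries. At 500 bp upstream the shares were 87.1% and 85.7% in +RV, against 68.6% and 70.7% in −RV, and at the TSS itself 99.3% and 98.6% in +RV, against 87.1% and 90.7% in −RV. At 1000 bp downstream they were 64.3% and 67.1% in +RV, against 28.6% and 28.6% in −RV. The other promoter regions showed the same side: 50.8% and 51.3% had a peak at 500 bp downstream in +RV, against 21.9% and 22.9% in −RV, and 45.6% and 45.6% at 500 bp upstream in +RV, against 31.4% and 34.4% in −RV.

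**Figure D2:**
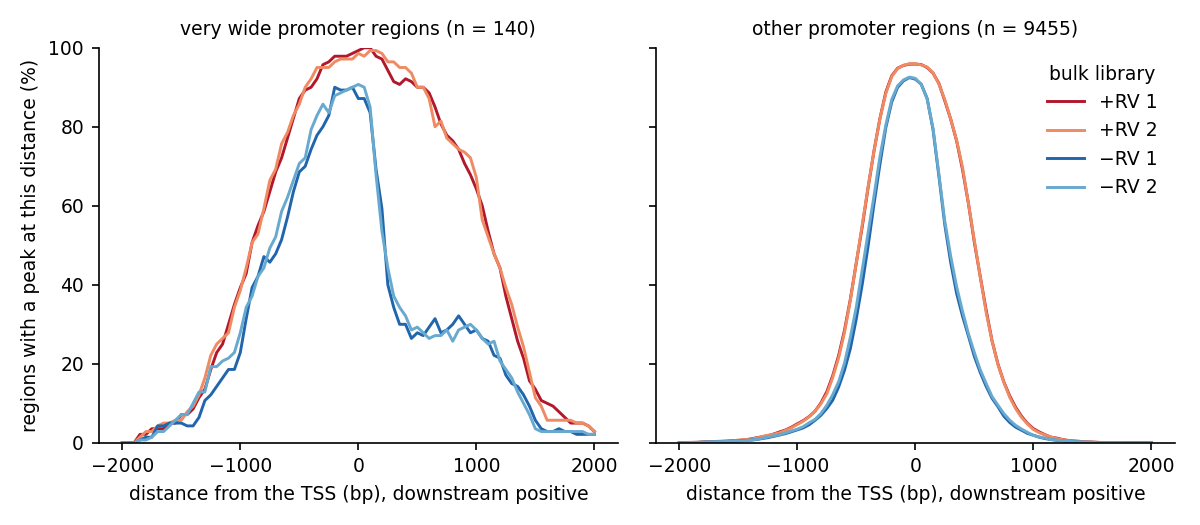
Share of regions (%) with a peak at each distance from the TSS (bp, downstream positive), for the 140 very wide promoter regions (left) and the 9455 other promoter regions (right); each line is 1 bulk library. In the very wide regions the −RV lines fall steeply downstream of the TSS, to 27.9% and 29.3% at 500 bp, where both +RV lines are at 90.0%.

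The very wide regions themselves reached further downstream than upstream. The reach had a median of 993.5 bp upstream and 1198.5 bp downstream, and 64.3% of the regions reached further downstream, against 51.9% of the other promoter regions (medians of 538 and 558 bp). Among regions whose TSSs lay on 1 strand, the share was 68.0% (85 of 125) for the very wide ones and 52.2% for the others. Fam84b reached 2251 bp downstream and 215 bp upstream, and Crlf2 2146 and 313 bp. Jun had the opposite layout, with 729 bp downstream and 1411 bp upstream. Several TSSs were common: 34.3% of the very wide regions touched 3 or more annotated TSSs, against 24.7% of the others, but 2 or more genes were touched by 12.1%, against 11.7%.

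Width did not go with a high summit fold. The highest fold enrichment of a region, the pile-up at a peak's summit over the local background of the caller, had medians of 5.79 and 5.64 over the very wide regions in the +RV libraries and 5.78 and 5.49 in the −RV libraries. The other promoter regions had higher medians in each library, 7.53 and 7.56 in +RV and 6.73 and 6.56 in −RV. On the log2 scale the gap between the medians was -0.38 and -0.42 in the +RV libraries and -0.22 and -0.26 in the −RV libraries, with p = 0.3333 by a two-sided exact permutation test, the smallest p that 2 libraries against 2 allow. Median −log10 q of the best peak went the other way, with 54.6 and 54.3 in +RV and 33.8 and 35.5 in −RV. For the other promoter regions it was 53.1 and 53.7 in +RV and 30.7 and 32.6 in −RV. The widest region, Ppp2r3d, had summit folds of only 4.04 and 3.99 in +RV and 4.36 and 4.27 in −RV.

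Summit fold, a measure that the rule did not use directly, was also compared between conditions. It is not independent of the choice, because a called peak rests on signal over the local background too. The highest fold was taken over a mean of 1.33 peaks per very wide region in +RV and 1.86 in −RV. The limma fit of log2 fold, each library centred on its median, called 0 of 23022 regions higher (0%) and 0 lower (0%) in +RV at an adjusted p under 0.05, while 4582 regions, 39 of the very wide ones among them, had an unadjusted p under 0.05. The median difference was -0.15 over the 140 regions, beside -0.065 over all regions. Without centring it was 0.040 over the 140, beside 0.13 over all, so that the sign of the members' median depended on the scaling. With the mean fold of all peaks of a region in place of the highest, the median was -0.00041 over the 140 and -0.063 over all regions, so that the very wide regions no longer lay below all regions. As deposited, the fold of both +RV libraries lay below both −RV libraries in 39 of the 140 regions (27.9%; 12.1% of all regions) and above them in 51 (36.4%; 43% of all regions).

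The most negative differences were at the region of Limd2 with Gm10840 and at Jun. Jun had summit folds of 4.48 and 4.93 in +RV, against 5.98 and 5.76 in −RV (log2 difference -0.51 ± 0.12 SE, limma adjusted p = 0.147). Limd2 with Gm10840 had 4.12 and 4.26 in +RV, against 5.69 and 4.84 in −RV (-0.51 ± 0.13, adjusted p = 0.1501). Stxbp5, which encodes tomosyn (-0.45), N4bp2 (-0.45) and the region of Dcaf6 with Mpc2, a mitochondrial pyruvate carrier subunit gene (-0.43), followed. The most positive differences were at Dmac1, a mitochondrial complex I assembly gene, with 6.02 and 5.19 in +RV, against 3.90 and 3.87 in −RV (0.33 ± 0.13, adjusted p = 0.212), and at Pde3b (0.30), Zfp827 (0.29), D1Ertd622e (0.28) and Ncoa7 (0.25). None of the 10 passed the limma threshold. Of the list genes, Egr2 had 5.37 and 5.05 in +RV, against 6.30 and 5.83 in −RV, Ywhaz 5.39 and 5.14, against 6.34 and 5.79, and Hsp90ab1 5.96 and 5.63, against 6.58 and 6.31. Both +RV values lay below both −RV values at 7 of the 8 list genes, beside 27.9% of the 140 regions and 12.1% of all regions. The 8 genes are few and their lists were chosen with earlier results known, so nothing is read from this count. The conditions overlapped at Arid1b, with 3.63 and 4.42 in +RV, against 4.03 and 3.35 in −RV.

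**Figure D3:**
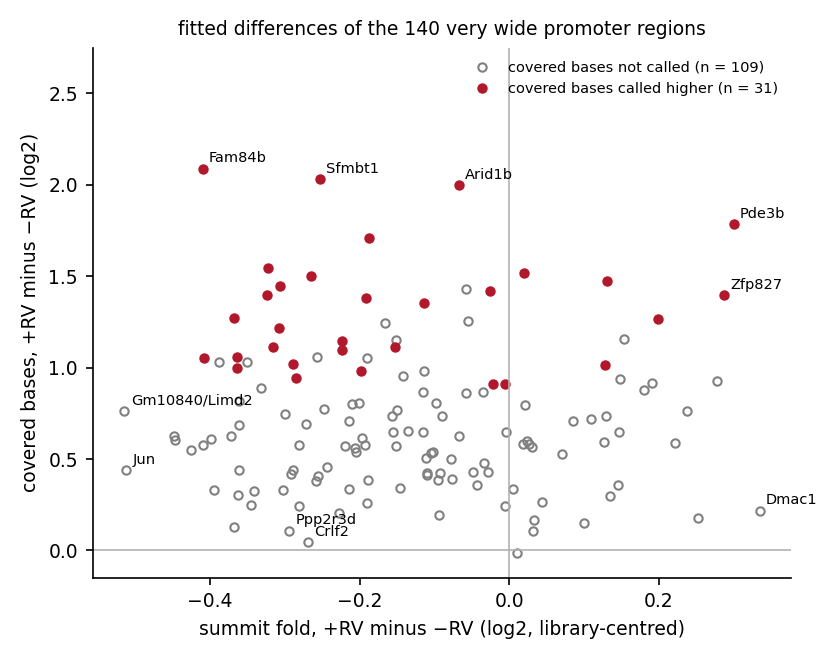
Fitted +RV minus −RV differences of the 140 very wide promoter regions: log2 summit fold after centring each library (horizontal axis) and log2 covered bases (vertical axis). Filled circles are the 31 regions called higher by covered bases and open circles the other 109. Covered bases were above 0 in 139 of 140 regions, whereas the fold difference was below 0 in 106 and above 0 in 34.

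Width was then measured in libraries that had not chosen the regions. Lists of replicate 1 alone (1 +RV and 1 −RV) gave 68 very wide promoter regions, and 66.2% of them spanned at least 2000 bp in the other +RV library and 25% in the other −RV library. Among the other promoter regions of that choice the shares were 0.464% and 0.0202%. Lists of replicate 2 gave 77, of which 59.7% and 20.8% spanned 2000 bp in the other +RV and −RV libraries, against 0.353% and 0.0101% of the rest. No very wide region of either choice was without a peak in the libraries held out. The held-out libraries were technical replicates from the same tagmented sample. These shares therefore describe repeated calling in the same material and are no independent support.

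Single-cell fragments were another source that the choice of regions had not used. By their label, however, the barcodes of both sets had been selected by the authors for their fraction of reads near TSSs. The paper counts that fraction from 1000 bp before to 200 bp past a TSS, the window of the rule here. This selection bears on the density at promoters in both classes of region and on their ratio between conditions. The 140 regions held 54467 fragments of the +RV set, or 0.397% (95% exact binomial interval 0.394 to 0.401), and 5010 of the −RV set, or 0.315% (0.306 to 0.323). Per kb, the median density of a region was 12.1 CPM (counts scaled to the nuclear fragments of the set) in +RV and 9.61 in −RV, beside 10.4 and 8.68 over the other promoter regions. The ratio of +RV over −RV, pooled over the 140, was 1.26 (1.23 to 1.301), against 1.17 (1.17 to 1.18) for the other promoter regions. With 1 set per condition these intervals cover counting error only, and there is no test between conditions. Fragments longer than the DNA of 1 nucleosome core made up 32.8% of those in the 140 regions in +RV and 5.29% in −RV. The shares were much the same in the other promoter regions, 31.0% in +RV and 5.18% in −RV. Over the whole set the median length of +RV fragments was 76 bp and that of −RV fragments 62 bp, so that fragment length moved with the ratio. With fragments of at most 100 bp only, the ratio was 1.11 in the very wide regions and 1.05 in the other promoter regions.

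Density differed several fold among the regions. Crlf2 had the highest mean of both sets, with 26.2 CPM per kb in +RV (884 fragments) and 26.0 in −RV (102). The region of Dcaf6 with Mpc2 had 29.1 in +RV and 21.5 in −RV, Hmgb2 25.5 and 23.8, Tob1, an antiproliferative factor gene, 24.5 and 22.8, and Lnpep, an aminopeptidase gene, 27.9 and 18.6. The lowest was Sfmbt1 with 4.38 in +RV (129 fragments) and 2.63 in −RV (9), followed by Zfp827 with 4.63 and 3.30, Phf2 with 4.92 and 4.12, Vav3, a guanine nucleotide exchange factor gene, with 4.63 and 5.28, and Pde3b with 5.86 and 4.18. The lowest counts in −RV limit what can be read from single regions: the ratio at Sfmbt1 was 1.67 with an exact conditional 95% interval of 0.851 to 3.72.

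Accessible fragments spread further from the TSS in the very wide regions. Within 2000 bp on both sides of the TSS, 48.4% of +RV fragments (47.98 to 48.8) and 51.1% of −RV fragments (49.8 to 52.4) lay more than 500 bp away, against 33.5% and 36.3% at the other promoter regions. The highest 100-bp bin, just upstream of the TSS, reached 29.9 CPM per kb and region in +RV and 25.1 in −RV, against 25.9 and 25.6 at the other promoter regions. Zones set after the profile was seen gave the ratio along the promoter. It was 1.19 (1.11 to 1.28) from 1000 to 500 bp upstream, 1.298 (1.21 to 1.396) within 100 bp of the TSS, 1.44 (1.33 to 1.56) from 200 to 700 bp downstream, and 1.09 (1.00 to 1.18) from 900 to 1400 bp downstream. At the other promoter regions the same zones gave 1.05, 1.09, 1.28 and 1.03. With fragments of at most 100 bp the very wide regions gave 1.21 (1.11 to 1.31) within 100 bp of the TSS, 1.18 (1.08 to 1.29) from 200 to 700 bp downstream and 0.976 (0.89 to 1.07) from 900 to 1400 bp downstream. In the very wide regions the intervals of the zone at the TSS and the zone from 200 to 700 bp overlapped in both settings, so their order is not settled. At the other promoter regions the zone from 200 to 700 bp was above with short fragments too. There it was 1.10 (1.09 to 1.11), against 1.05 (1.04 to 1.06) within 100 bp of the TSS. Of the zones at the TSS, from 200 to 700 bp and from 900 to 1400 bp downstream, the last was the lowest in both settings.

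**Figure D4:**
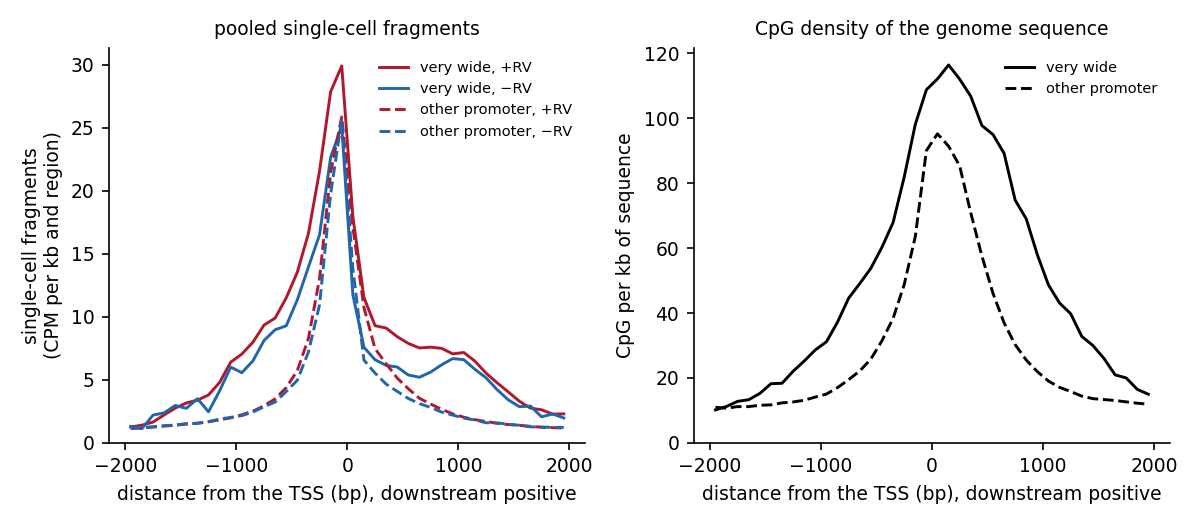
Pooled single-cell fragments (CPM per kb and region, left) and CpG dinucleotides per kb of genome sequence (right) in 100-bp bins against distance from the TSS (bp, downstream positive). Solid lines are the 140 very wide promoter regions and dashed lines the 9455 other promoter regions; on the left, red is +RV and blue is −RV. The highest bins reach 29.9 (+RV) and 25.1 (−RV) CPM per kb for the very wide regions, and both their shoulders stay above the dashed lines to beyond 1000 bp.

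The single-cell sets also held fragments where bulk −RV lists had no peak. Bases with a peak in all 4 libraries made up 46.9% of the very wide regions and had 20.5 CPM per kb in the +RV set (20.3 to 20.7) and 16.6 in the −RV set (16.1 to 17.2). Bases with a peak in both +RV but no −RV library made up 24.6% and had 6.09 in the +RV set (5.94 to 6.24) and 4.16 in the −RV set (3.803 to 4.54). Flanks of 1 region width on each side had 1.56 in the +RV set (1.54 to 1.59) and 1.58 in the −RV set (1.499 to 1.66). Density in the bases called in both +RV libraries alone was above the flanks in both sets, with intervals that do not overlap. Flanks lay outside the regions, and density fell with distance from the TSS, so this comparison does not separate the calls from position. All remaining bases of the regions (28.1%) had 6.57 in the +RV set and 5.03 in the −RV set, higher than the bases called in both +RV libraries alone. The few bases with a peak in both −RV but no +RV library (0.443%, in 26 regions) went the other way, with 4.03 in the +RV set (3.17 to 5.06) and 7.40 in the −RV set (4.23 to 12.02).

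The regions also shared a base composition that the choice had not used. Their median GC content was 63.2%, against 59.3% in the other promoter regions, and CpG observed over expected was 0.794, against 0.731. To take region width out, the 1000 bp around the TSS were read alone, and the ratio was 0.881, against 0.749. CpG island sequence, taken as 200-bp windows with GC over 0.5 and CpG observed over expected over 0.6, covered a median of 1990.5 bp within 2000 bp of the TSS on both sides at the very wide regions, against 1086 bp at the others. Inside the regions, 132 of 140 (94.3%) held at least 1000 bp of it, against 31.4% of the other promoter regions, whose median width was 1121 bp. As a share of the region's own width, island sequence had a median of 85.1%, against 79.4%. CpG density stayed high on the downstream side: in the bin centred 550 bp downstream of the TSS it was 95 per kb in the very wide regions, against 46.1 in the others.

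Single regions departed from this. CpG observed over expected was highest at Sfmbt1 (1.05), Phip (1.02), Pds5a, a cohesin regulator gene (1.02), Sinhcaf, a gene for a SIN3 histone deacetylase complex factor (0.993), and Lsm14a (0.988). It was lowest at Fes (0.369), Smpdl3a (0.408), Stat6 (0.425), Wls, which encodes a carrier of Wnt ligands (0.432), and Orai2, a calcium channel gene (0.497). The Fes region held 318 bp of island sequence in 2180 bp, whereas all but 1 of the 140 held at least 500 bp. Introns made up a median of 40.0% of a very wide region, against 32.3% of the others, exons 21.2%, against 24.7%, and sequence outside protein-coding transcripts 36.2%, against 41.1%.

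Short sequence motifs were counted on both strands of the 300-bp promoters. The ETS core CCGGAAG occurred in 8.26% of the 109 promoters of very wide regions, against 22.0% of the 7570 promoters of other promoter regions and 9.35% of all promoters. The GC box GGGCGG occurred in 76.1%, against 69.0% and 36.6%, and the CCAAT box in 32.1%, against 40.0% and 37.8%. The TATA box TATAAA occurred in 5.50%, against 5.89% and 14.1%, the NRF1 element GCATGCGC in 3.67%, against 6.46% and 2.82%, and the E-box CACGTG in 13.8%, against 10.9% and 7.27%. The cyclic AMP response element TGACGTCA was found in 0.917%, against 3.76% and 1.91%, the YY1 element ATGGCGGC in 2.752%, against 6.05% and 2.42%, and the AP-1 site TGANTCA in 2.752%, against 4.10% and 7.97%. These shares describe letters in a fixed window, and GC box and CpG content are not independent of each other.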

How the data were processed

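Bulk ATAC-seq peaks were read from 4 deposited lists, 1 per library, in which the authors gave each peak's coordinates on mm10, a score (10 times −log10 q), a fold enrichment (ratio of summit pile-up to the caller's local background), −log10 p and q, and a summit offset. The lists have the layout of MACS2 and had blacklisted regions removed; for the single-cell data the methods state MACS2 peak calling without a model or read shift, followed by blacklist filtering, while no statement on the caller of the bulk lists was found in the sources read. Tools listed in the notes of the submitters are SEACR 1.3, Picard 1.119, SAMtools 1.15 and Bowtie2 2.4. Fold and q depend on library depth, which the lists do not give. Deposited single-cell fragment files held coordinates and barcodes, selected by the authors and pooled over replicates; a fragment was assigned by its midpoint, duplicates were removed by the authors, and CPM refer to nuclear fragments.

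Bases covered by peaks and the highest fold per region were compared with limma 3.58.1 in R 4.3.3 on the log2 scale over all 23022 regions called in all 4 libraries, with Benjamini-Hochberg adjustment over all of them. Library medians were compared with exact two-sided permutation tests. Intervals are exact (Poisson, binomial or conditional, 95%) and cover counting error only. TSSs came from the basic set of GENCODE vM21 and base composition from GRCm38.p6, read with Python. Named genes followed a rule: the 10 widest regions, 5 at each end of fold difference, single-cell density and CpG ratio, 3 on each side of the width limit, list genes and the region with most genes. The regions and gene lists were chosen with earlier results of these data known.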

Additional observations from a re-analysis of the deposited data

How the results depend on the processing

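The number of very wide promoter regions rested on the width limit and on the +RV libraries. It was 1276 with a minimum of 1500 bp and 1 (Ppp2r3d) with 3000 bp, between 85 and 131 with 1 library left out (86 without +RV 1 and 85 without +RV 2), and 5 when chosen on the −RV libraries alone. The ratio of covered bases was 1.39 at 1500 bp, 1.08 at 3000 bp, 1.01 for the choice on −RV alone, 1.65 for that on +RV alone, and 1.49 to 1.66 with 1 library left out. Choices on the libraries of 1 condition were added after the data were seen. By covered bases, centring and the fit with the replicate block each called 0 regions higher, 0 lower and 0 of the very wide regions. With the replicate block, 99 of the 140 and 7168 of all 23022 regions had an unadjusted p under 0.05 by limma. With 1 library left out, the median difference was 0.61 to 0.70 over the 140 and 0.32 to 0.36 over all regions. These fits leave 1 library in a condition, so they do not show that the calls hold. Same-numbered libraries did not deviate together (r = -0.0075 for covered bases, 2 pairs). This does not settle whether the numbers pair them. With only regions of a mean fold of at least 5, 2220 of 13070 were called higher, 2 lower, and 51 of 101 very wide regions higher. With −log10 q of at least 5, 1133 of 21081 regions were called higher, 4 lower, and 41 of 134 very wide regions higher. With equal numbers of peaks, 809 of 21011 were called higher, 1 lower, and 27 of 135 very wide regions higher. By summit fold, 0 were called under every alternative, and the median difference of the members turned from -0.15 to 0.040 without centring and was -0.00041 with the mean fold of all peaks. The pooled single-cell ratio was 1.11 with fragments of at most 100 bp and 1.21 with barcodes of at least 1000 fragments. List genes in very wide regions numbered 39 at 1500 bp and 0 at 3000 bp. What sets these shifts was not tested.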

Other observations

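Wide regions also occurred away from protein-coding promoters. Of the 9 regions of at least 2000 bp that were called in all 4 bulk libraries without touching a promoter window, 3 overlapped annotated lincRNA genes (G730013B05Rik, E130102H24Rik with 0610043K17Rik, and Gm15408). The widest, chr14:115040124-115042568 (2445 bp), lay 49682 bp from the nearest protein-coding TSS, that of Gpc5. Its peaks covered 2430 and 2313 bp in the +RV libraries, against 1471 and 1576 bp in the −RV libraries, and its single-cell density was 14.0 CPM per kb in +RV and 11.0 in −RV, the highest of the 9 in each set. Median CpG observed over expected was 0.794 in the very wide promoter regions, against 0.598 over the 9. On chromosome X, 3 promoter regions met the same width limit: Ddx3x (2020 bp), an RNA helicase gene, Maoa (2015 bp), the monoamine oxidase A gene, and Rps6ka3 (2126 bp), a kinase gene. At Rps6ka3 the peaks covered 1896 and 2040 bp in +RV, against 1316 and 913 bp in −RV.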
